A study of Mus musculus with 24 samples.

Results

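The 10 genes described here encode the MCM helicase (Mcm2, Mcm3, Mcm4, Mcm5, Mcm6 and Mcm7) and 4 enzymes that make DNA building blocks (Tyms, Rrm1, Rrm2 and Tk1). They were taken by symbol from the 24325 gene symbols on a 1-colour Agilent mouse array, with the brightest probe kept for each gene. All 10 passed the filter, which asked for a signal well above background in 4 or more mice of some group, and were tested among 13070 genes. Whole blood was drawn 24 h after X rays or mock exposure from 24 male mice of the 129S/J strain, 1 mouse per array. The groups were Parp1-/- mice given 6 Gy (n = 5), Parp1-/- mice given 0 Gy (n = 5), and wild-type mice given 0 Gy (n = 5), 6 Gy (n = 5) or 8.8 Gy (n = 4). Parp1-/- mice lack PARP1, a sensor of DNA strand breaks; how the allele was made and how old the mice were was not stated. The series design gives 6 Gy in Parp1-/- mice and 8.8 Gy in wild-type mice as doses of matched lethality.

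The 6 MCM proteins form a ring that is loaded around DNA at replication origins in G1 and unwinds it in S phase. Tyms (thymidylate synthase) makes dTMP from dUMP, Tk1 (thymidine kinase) salvages thymidine, and Rrm1 and Rrm2 are the large and the small subunit of ribonucleotide reductase, which makes deoxyribonucleotides. E2F transcription factors are known to drive many of these genes at the start of S phase. Most circulating blood cells do not divide, while activated lymphocytes and precursor cells released from the marrow do.

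Promoter sequences are shown for genes that changed after exposure. Of the 10 genes, 9 had an entry in the RefSeq promoter table (GRCm38.p6, 250 bases before to 50 after the start site). The E2F-type motif TTTNGCGC, searched on both strands, was found in 4 of these 9 genes (Mcm3, Mcm5, Mcm6 and Mcm7), compared with 1.57% of 27025 genes in the table. The CCAAT box, CCAAT on either strand, was found in 7 of the 9 genes, compared with 41.1% of genes in the table. The 4 promoters below are those of Mcm5, the helicase gene that fell in all 3 irradiated groups, of Mcm6, which held the most E2F-type matches (3), and of Rrm2 and Tyms, the genes that rose. They lie at chr8:75109259-75109558 (+ strand) for Mcm5, chr1:128359656-128359955 (- strand) for Mcm6, chr12:24708004-24708303 (+ strand) for Rrm2 and chr5:30073576-30073875 (- strand) for Tyms. Capitals mark the E2F-type matches, which overlap one another in Mcm5 and once in Mcm6.
Mcm5: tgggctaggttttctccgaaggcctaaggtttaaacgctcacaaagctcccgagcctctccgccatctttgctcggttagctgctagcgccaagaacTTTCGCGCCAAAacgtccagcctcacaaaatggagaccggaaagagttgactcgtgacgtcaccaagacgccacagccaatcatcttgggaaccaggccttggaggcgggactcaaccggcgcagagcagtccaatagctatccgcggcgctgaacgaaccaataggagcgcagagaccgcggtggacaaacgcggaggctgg
Mcm6: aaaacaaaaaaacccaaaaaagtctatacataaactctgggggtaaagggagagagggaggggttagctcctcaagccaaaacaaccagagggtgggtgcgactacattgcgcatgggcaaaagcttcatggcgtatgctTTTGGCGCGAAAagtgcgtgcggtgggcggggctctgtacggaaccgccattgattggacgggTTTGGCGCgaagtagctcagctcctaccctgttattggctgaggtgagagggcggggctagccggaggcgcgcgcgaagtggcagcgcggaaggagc
Rrm2: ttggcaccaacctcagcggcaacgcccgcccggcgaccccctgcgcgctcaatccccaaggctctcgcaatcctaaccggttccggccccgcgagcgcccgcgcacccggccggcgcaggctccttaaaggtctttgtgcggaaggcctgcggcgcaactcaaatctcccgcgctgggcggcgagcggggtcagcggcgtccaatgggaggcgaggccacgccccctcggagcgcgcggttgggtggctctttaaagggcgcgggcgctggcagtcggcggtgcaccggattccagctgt
Tyms: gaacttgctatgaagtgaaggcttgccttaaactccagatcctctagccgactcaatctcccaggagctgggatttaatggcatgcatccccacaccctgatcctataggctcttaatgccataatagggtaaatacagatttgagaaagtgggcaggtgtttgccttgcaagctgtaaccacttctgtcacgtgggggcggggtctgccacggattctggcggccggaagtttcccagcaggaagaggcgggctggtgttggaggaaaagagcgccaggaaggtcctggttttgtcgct
The Rrm2 and Tyms windows held no match to TTTNGCGC.

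The array probe of Mcm5 lies at chr8:77651350-77651410 and that of Tyms at chr5:30385578-30385637 (mm9). Levels are log2 processed signals minus the 75th percentile of the array, so a gene at 0 is as bright as that percentile. Between 36.6% and 57.8% of probes were well above background per array, and the number of arrays limits the precision. This share moved with the groups: it was 36.6% to 41.8% in Parp1-/- 0 Gy mice and 42.8% to 53.5% in Parp1-/- 6 Gy mice. Wild-type arrays lay between 41.3% and 57.8%. The part of this share in the changes of Parp1-/- mice was not tested. Parp1 itself was well above background on 1 of 5 arrays labelled Parp1-/- 6 Gy and on no array labelled Parp1-/- 0 Gy. Its level was -1.67 on the array labelled Parp1-/- 6 Gy replicate 1, while the other Parp1-/- 6 Gy arrays lay between -5.01 and -3.45, wild-type 6 Gy mice between -2.33 and -1.27 and wild-type 0 Gy mice between -0.94 and -0.35. It was -3.95, not well above background, in wild-type 8.8 Gy replicate 4 as labelled, and between -1.59 and -1.25 in the other 3 mice at that dose. Whether the Parp1 probe lies in the deleted part was not stated. Replicate 1 of the Parp1-/- 6 Gy group was nearly equal to replicate 2 of the 8.8 Gy group, with an SD of log2 differences of 0.166 over 10787 probes, while the median over all 276 pairs of arrays was 0.901. The 24 arrays came from 10 slides scanned on 4 days, and no day held both irradiated and sham wild-type mice. Hepatocyte markers varied widely within groups, from -1.30 to 7.88 in wild-type 0 Gy mice alone. Heart muscle markers averaged 5.43 in Parp1-/- 6 Gy replicate 3 and 2.97 in wild-type 6 Gy replicate 1. They averaged 1.86 and 1.66 in wild-type 8.8 Gy replicates 3 and 4, and 0.18 or lower on every other array. The part of heart muscle markers in the results was not tested.

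**Figure D1:**
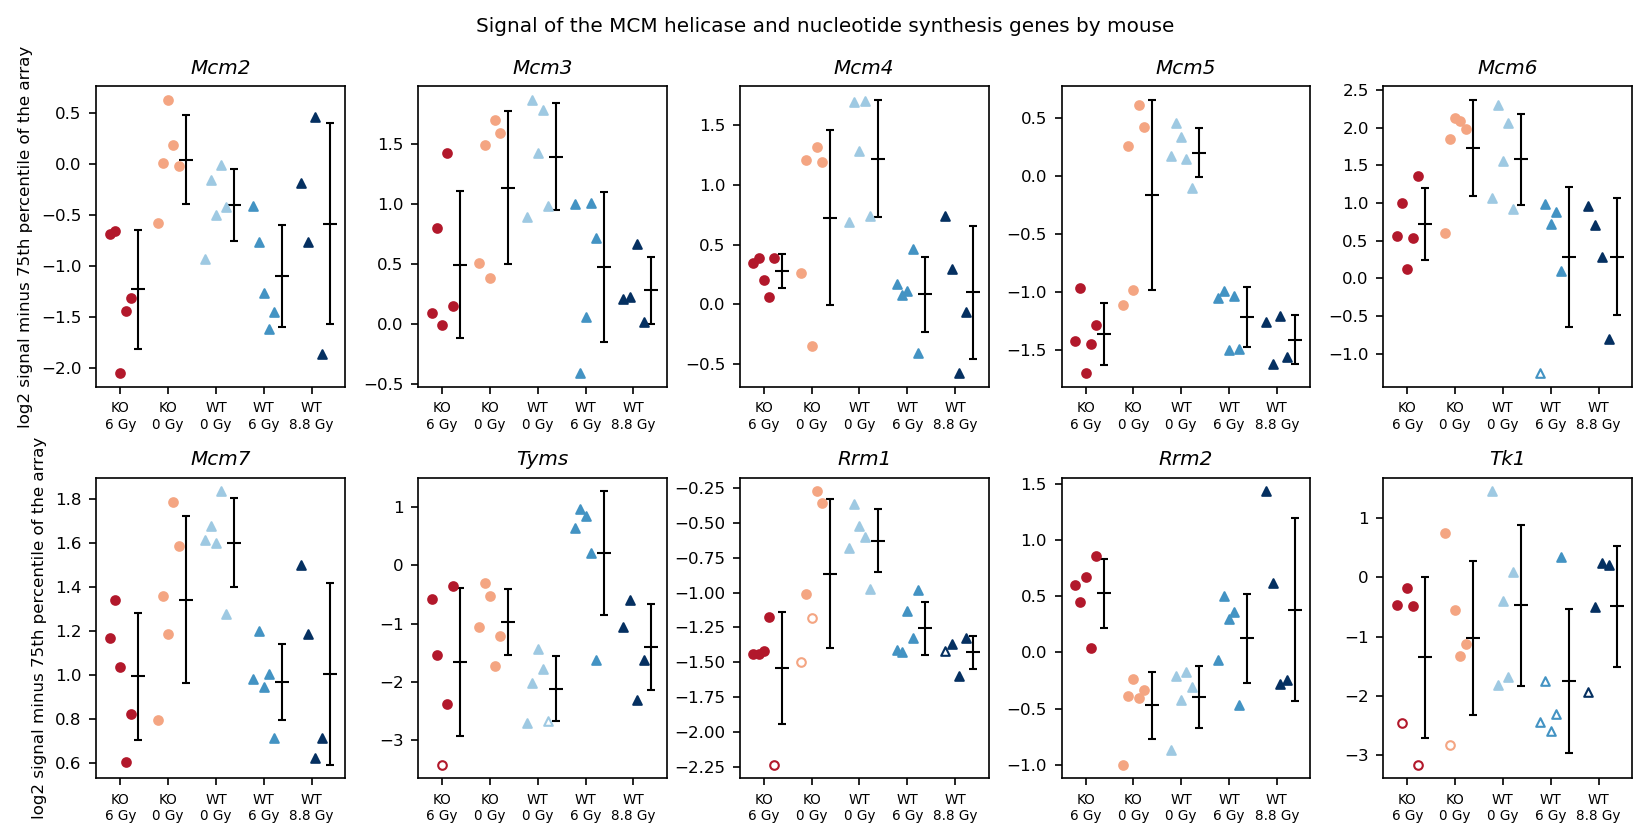
Log2 level of each gene on every array, 1 panel per gene, with the y axis in log2 units relative to the array's 75th percentile. Circles are Parp1-/- mice and triangles wild-type mice, open symbols are not well above background, and black bars give the mean ± SD of 4 or 5 mice. Mcm5 was at -0.96 or lower in every irradiated mouse, and at -0.10 or higher in all wild-type sham mice and 3 of 5 Parp1-/- sham mice.

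Helicase genes were lower in blood 24 h after X rays in both genotypes, and Mcm5 was the one that passed the test in all 3 irradiated groups. In irradiated Parp1-/- mice 2 of 6 MCM genes fell and 0 rose, where 10.5% of all genes tested fell and 12.3% rose (limma, adjusted p under 0.05). In wild-type mice 5 of 6 fell after 6 Gy, where 10.9% of all genes fell and 15.6% rose, and 3 of 6 fell after 8.8 Gy, where 9.03% of all genes fell and 7.02% rose. None of the 6 rose in wild-type mice. After normexp background correction the 6 Gy calls of Mcm3 and Mcm7 were lost. The median log2 change of the 6 genes was -0.83 in Parp1-/- mice, and -1.03 at 6 Gy and -1.12 at 8.8 Gy in wild-type mice, while the medians of all genes tested were -0.07, 0.04 and 0.03. In bulk blood, fewer cells of a type and less RNA per cell cannot be told apart.

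Mcm5, a subunit of the gate through which the ring opens, had log2 levels of -1.42, -0.96, -1.70, -1.44 and -1.28 in Parp1-/- 6 Gy mice, against -1.11, 0.26, -0.98, 0.61 and 0.42 in Parp1-/- 0 Gy mice. In wild-type mice it had 0.17, 0.45, 0.33, 0.14 and -0.10 at 0 Gy, -1.05, -0.99, -1.50, -1.03 and -1.49 at 6 Gy, and -1.26, -1.62, -1.21 and -1.56 at 8.8 Gy. Every irradiated wild-type mouse lay below every sham one, whereas among Parp1-/- mice the sham replicates 1 and 3 were nearly as low as the irradiated mice. Hepatocyte markers averaged 7.31 and 2.47 on the log2 scale in those 2 sham mice and 0.39 or lower in the other 3, and their part in the result was not tested. Mcm5 was 2.30-fold lower in irradiated than in sham Parp1-/- mice (log2 change -1.20 ± 0.28 SE, limma adjusted p = 0.00342). It was 2.66-fold lower at 6 Gy (-1.41 ± 0.28, limma adjusted p = 0.00162) and 3.06-fold lower at 8.8 Gy (-1.61 ± 0.30, limma adjusted p = 0.0011) in wild-type mice. After normexp background correction the changes were -0.82 in Parp1-/- mice, and -0.85 and -0.59 in wild-type mice, and each still passed. With arrays centred on their median the 6 Gy change was -2.19, in a setting that put the median of all genes at -0.74.

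Mcm2, which pairs with Mcm5 at that gate, fell in Parp1-/- mice. It had log2 levels of -0.69, -0.65, -2.05, -1.44 and -1.32 in Parp1-/- 6 Gy mice, against -0.58, 0.01, 0.63, 0.18 and -0.02 in Parp1-/- 0 Gy mice. The 2 groups did not overlap, and the log2 change was -1.28 ± 0.36 (SE, limma adjusted p = 0.0133), or -0.75 after normexp background correction. In wild-type mice its mean was -0.40 ± 0.35 at 0 Gy, -1.10 ± 0.50 at 6 Gy and -0.58 ± 0.99 at 8.8 Gy (SD, n = 5, 5 and 4). Those groups overlapped and neither wild-type change passed the test (limma adjusted p = 0.153 and 0.781), and after normexp background correction the change at 8.8 Gy was 0.14. The difference between the genotypes in the response to 6 Gy was -0.58 (95% interval -1.64 to 0.48, limma adjusted p = 0.495), so a different Mcm2 response in Parp1-/- mice was not shown.

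Mcm4, part of the catalytic core of the helicase with Mcm6 and Mcm7, fell in wild-type mice. Its log2 levels were 0.69, 1.69, 1.28, 1.71 and 0.74 at 0 Gy, 0.17, 0.08, 0.11, 0.46 and -0.41 at 6 Gy, and 0.74, 0.30, -0.58 and -0.06 at 8.8 Gy. All 6 Gy mice lay below all sham mice, while 1 of 4 mice at 8.8 Gy was within the sham range. The log2 changes were -1.14 ± 0.31 at 6 Gy (SE, limma adjusted p = 0.0112) and -1.12 ± 0.33 at 8.8 Gy (limma adjusted p = 0.0223). The 8.8 Gy call was lost without wild-type 8.8 Gy replicate 3 or 4 or wild-type 0 Gy replicate 2 or 4, with changes of -1.07 to -0.90. After normexp background correction the changes were -0.68 and -0.57. In Parp1-/- mice Mcm4 averaged 0.28 ± 0.14 at 6 Gy and 0.73 ± 0.74 at 0 Gy (SD, n = 5 each), a change of -0.45 that did not pass (limma adjusted p = 0.306). The irradiated Parp1-/- mice were tightly grouped, between 0.06 and 0.39, and the sham mice spread on both sides of them.

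Mcm6 had log2 levels of 1.07, 2.30, 1.55, 2.06 and 0.92 at 0 Gy, -1.25, 0.99, 0.73, 0.88 and 0.09 at 6 Gy, and 0.96, 0.71, 0.29 and -0.80 at 8.8 Gy in wild-type mice. The change at 6 Gy was -1.29 ± 0.42 (SE, limma adjusted p = 0.0288), and the same change at 8.8 Gy missed the threshold (-1.29 ± 0.45, limma adjusted p = 0.0526). The 6 Gy call was lost without wild-type 6 Gy replicate 1, the lowest mouse, and without wild-type 0 Gy replicate 2 or 4, with changes of -1.17 to -0.91. Mcm7 averaged 1.60 ± 0.20 at 0 Gy, 0.97 ± 0.17 at 6 Gy and 1.01 ± 0.41 at 8.8 Gy (SD, n = 5, 5 and 4). Its change at 6 Gy was -0.63 ± 0.21 (SE, limma adjusted p = 0.0323), with no overlap between groups, and that at 8.8 Gy was -0.60 ± 0.23 (limma adjusted p = 0.0732). After normexp background correction the Mcm7 change at 6 Gy was -0.42 and did not pass (limma adjusted p = 0.114). The Mcm7 call was lost without wild-type 6 Gy replicate 1, 3 or 5 or wild-type 0 Gy replicate 1, 2, 3 or 4, with changes of -0.64 to -0.57. In Parp1-/- mice neither gene passed, at -1.01 for Mcm6 and -0.35 for Mcm7 (limma adjusted p = 0.0882 and 0.246).

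Mcm3 had log2 levels of 0.89, 1.87, 1.42, 1.78 and 0.99 at 0 Gy, 1.0, -0.41, 0.06, 1.01 and 0.71 at 6 Gy, and 0.21, 0.23, 0.67 and 0.01 at 8.8 Gy in wild-type mice. All mice at 8.8 Gy lay below all sham mice, while at 6 Gy replicates 1 and 4 were within the sham range. The change was -0.92 ± 0.34 at 6 Gy (SE, limma adjusted p = 0.0497) and -1.11 ± 0.36 at 8.8 Gy (limma adjusted p = 0.0387). After normexp background correction that at 6 Gy was -0.53 and did not pass (limma adjusted p = 0.155), while that at 8.8 Gy passed (-0.82). The 2 Mcm3 probes share 43 of 60 bases and both fell on average, the other probe with changes of -0.72 in Parp1-/- mice, and -0.96 at 6 Gy and -1.22 at 8.8 Gy in wild-type mice. With 1 array left out at a time, the 6 Gy call held in 9 of 24 fits (limma adjusted p between 0.0352 and 0.154). It was lost without wild-type 6 Gy replicate 2 or 3, wild-type 0 Gy replicate 2, 3 or 4, any wild-type 8.8 Gy array, Parp1-/- 6 Gy replicate 1, 2 or 5, or Parp1-/- 0 Gy replicate 2, 4 or 5, with changes of -0.92 to -0.70. The 8.8 Gy call held in 18 of 24 fits and was lost without wild-type 8.8 Gy replicate 1, 2 or 4 or wild-type 0 Gy replicate 2, 3 or 4 (-1.10 to -0.99). In Parp1-/- mice Mcm3 averaged 0.49 ± 0.61 at 6 Gy and 1.14 ± 0.64 at 0 Gy (SD, n = 5 each; limma adjusted p = 0.18).

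**Figure D2:**
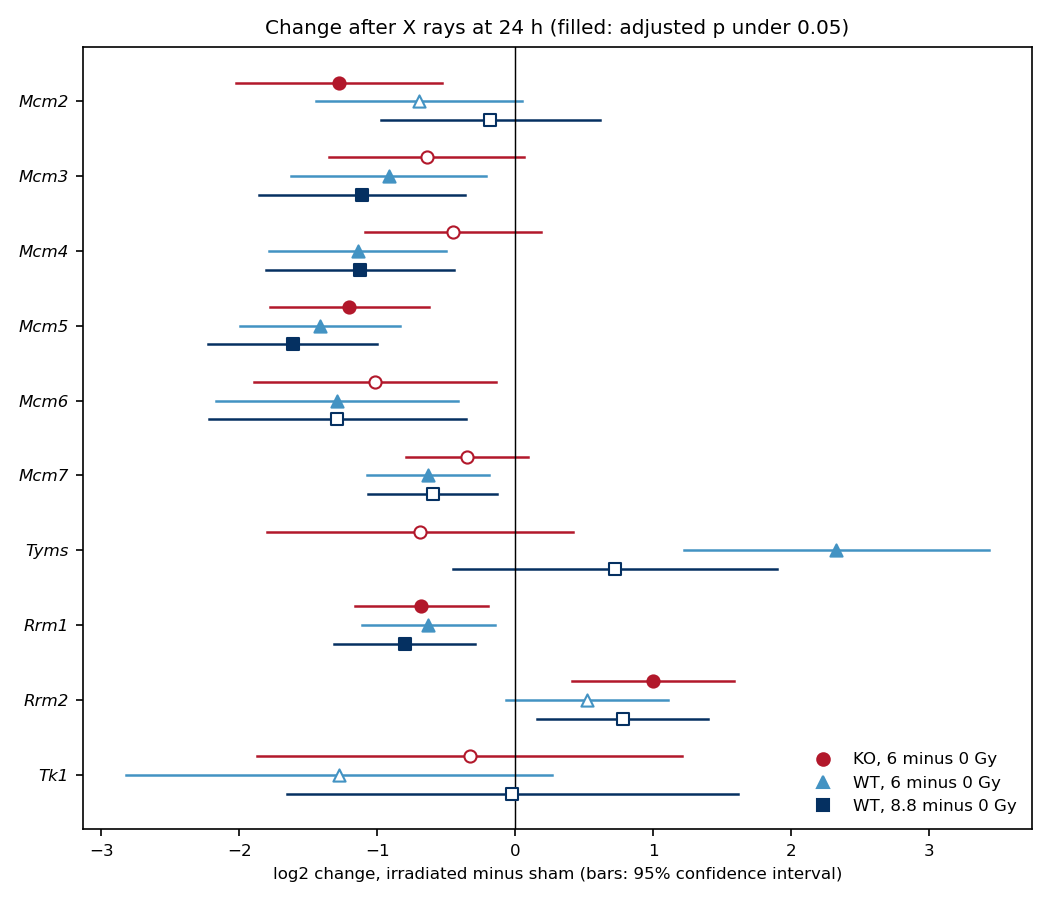
Log2 change of each gene between irradiated and sham mice (x axis), with 95% confidence intervals from limma and filled symbols where the adjusted p was under 0.05. Circles are Parp1-/- mice at 6 Gy, triangles wild-type mice at 6 Gy and squares wild-type mice at 8.8 Gy. The 6 MCM genes lie left of 0 in all 3 comparisons (Mcm2 at 8.8 Gy lies at 0.14 after normexp background correction), Rrm2 lies right of 0 in all 3, and Tyms reaches 2.33 in wild-type mice at 6 Gy.

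The 4 enzyme genes did not move as a group, and in Parp1-/- mice the 2 subunits of ribonucleotide reductase changed in opposite directions. The Rrm1 call there was lost in 5 of 24 fits that left out 1 array. Over all 10 genes, 1 rose and 3 fell in Parp1-/- mice, where 22.8% of genes tested were called in either direction. In wild-type mice 1 rose and 6 fell at 6 Gy, where 26.4% were called, and 0 rose and 4 fell at 8.8 Gy, where 16.1% were called. At an unadjusted limma p under 0.05, 7 of 10 genes were counted at 8.8 Gy, Rrm2 among them as a higher one. Of 13070 genes tested 3988 were counted there. The counts were 5 of 10 genes in Parp1-/- mice, where 4679 of 13070 were counted, and 7 of 10 at 6 Gy in wild-type mice, where 5205 were. Irradiated and sham mice did not overlap for 2 of 10 genes in Parp1-/- mice, where 15.4% of all genes did not. In wild-type mice these counts were 4 at 6 Gy and 3 at 8.8 Gy, where 18.6% and 18.1% of all genes did not overlap.

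Rrm1, the large catalytic subunit, fell in all 3 irradiated groups. Its log2 levels were -1.44, -1.44, -1.42, -1.18 and -2.24 in Parp1-/- 6 Gy mice, against -1.50, -1.01, -1.19, -0.27 and -0.35 in Parp1-/- 0 Gy mice. In wild-type mice they were -0.68, -0.36, -0.52, -0.60 and -0.97 at 0 Gy, -1.41, -1.42, -1.13, -1.32 and -0.98 at 6 Gy, and -1.42, -1.37, -1.60 and -1.33 at 8.8 Gy. The wild-type groups did not overlap, although the closest 6 Gy and sham mice differed by little, and the Parp1-/- groups did. The changes were -0.68 ± 0.23 in Parp1-/- mice (SE, limma adjusted p = 0.0372), and -0.63 ± 0.23 at 6 Gy (limma adjusted p = 0.0484) and -0.80 ± 0.25 at 8.8 Gy (limma adjusted p = 0.0291) in wild-type mice. With 1 array left out at a time, these calls held in 19, 8 and 19 of 24 fits, with limma adjusted p up to 0.121, 0.106 and 0.0738. In Parp1-/- mice the call was lost without 6 Gy replicate 1, 2 or 5 or 0 Gy replicate 4 or 5 (-0.70 to -0.51), and at 8.8 Gy without 8.8 Gy replicate 1, 2 or 3 or wild-type 0 Gy replicate 2 or 3 (-0.82 to -0.73). At 6 Gy it was lost without replicate 1, 2, 3 or 4 of either wild-type group, any 8.8 Gy array, Parp1-/- 6 Gy replicate 1, 2 or 3, or Parp1-/- 0 Gy replicate 2 (-0.66 to -0.56). In Parp1-/- mice the change did not pass with arrays centred on their median (-0.64, limma adjusted p = 0.107). It did not pass with replicate number as a block either (limma adjusted p = 0.0551). Rrm1 was well above background on 20 of 24 arrays, with 4 of 5 in Parp1-/- 6 Gy and 3 of 5 in Parp1-/- 0 Gy mice. After normexp background correction neither wild-type change passed, at -0.17 in place of -0.63 at 6 Gy and 0.21 in place of -0.80 at 8.8 Gy.

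Rrm2, the small subunit that supplies the tyrosyl radical and is normally restricted to S phase, rose in Parp1-/- mice. Its log2 levels were 0.60, 0.45, 0.67, 0.04 and 0.86 in Parp1-/- 6 Gy mice, against -1.0, -0.39, -0.23, -0.41 and -0.33 in Parp1-/- 0 Gy mice. Every irradiated Parp1-/- mouse lay above every sham one, a 2.0-fold difference (log2 change 0.998 ± 0.28 SE, limma adjusted p = 0.0133), with a change of 0.42 after normexp background correction. In wild-type mice Rrm2 had -0.87, -0.21, -0.42, -0.18 and -0.31 at 0 Gy, -0.07, 0.50, 0.29, 0.36 and -0.47 at 6 Gy, and 1.44, 0.61, -0.28 and -0.25 at 8.8 Gy. Those groups overlapped and the changes of 0.52 and 0.78 did not pass (limma adjusted p = 0.172 and 0.0786), although that at 8.8 Gy passed after normexp background correction (0.50). The genotypes' responses to 6 Gy differed by 0.48 (95% interval -0.35 to 1.30, limma adjusted p = 0.47). Rrm2b, the p53-inducible small subunit, was well above background on no array and was not tested.

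Tyms moved differently from the other genes, with a rise in wild-type mice at 6 Gy. Its log2 levels were -2.70, -2.02, -1.43, -1.78 and -2.66 at 0 Gy, 0.64, 0.97, 0.85, 0.21 and -1.63 at 6 Gy, and -1.06, -0.59, -2.30 and -1.62 at 8.8 Gy. At 6 Gy 4 of 5 mice lay above all sham mice and replicate 5 lay among them, while the 8.8 Gy mice overlapped both. Tyms was 5.02-fold higher at 6 Gy than in wild-type sham mice (log2 change 2.33 ± 0.53 SE, limma adjusted p = 0.0044), and 0.72 ± 0.57 higher at 8.8 Gy, which did not pass (limma adjusted p = 0.406). In Parp1-/- mice it had -0.58, -1.54, -3.42, -2.38 and -0.36 at 6 Gy, against -1.05, -0.30, -0.53, -1.73 and -1.22 at 0 Gy, a change of -0.69 ± 0.53 (limma adjusted p = 0.369).

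The response of Tyms to 6 Gy differed between the genotypes, by -3.02 ± 0.75 on the log2 scale for Parp1-/- minus wild type (limma adjusted p = 0.0344). It was the 1 gene of 10 called in this test of the difference, where 6.13% of all genes tested were called, 0.926% with a positive and 5.2% with a negative difference. The median level of the 9554 probes that were well above background on no array was also higher in irradiated than in sham wild-type mice and lower in irradiated than in sham Parp1-/- mice. It was -4.71 ± 0.46 in Parp1-/- 6 Gy mice and -3.85 ± 0.30 in Parp1-/- 0 Gy mice, and -5.02 ± 0.70 at 0 Gy, -4.12 ± 0.30 at 6 Gy and -4.79 ± 0.94 at 8.8 Gy in wild-type mice (SD). The part of this background level in the Tyms result was not tested. After normexp background correction the rise of Tyms in wild-type mice at 6 Gy was 1.06, still past the threshold, and the difference between genotypes was -1.42, which did not pass. The call for the difference was also lost without Parp1-/- 6 Gy replicate 2, 3 or 4, Parp1-/- 0 Gy replicate 3, wild-type 0 Gy replicate 1 or 5, or wild-type 6 Gy replicate 1, 2 or 3, with differences of -3.05 to -2.58.

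**Figure D3:**
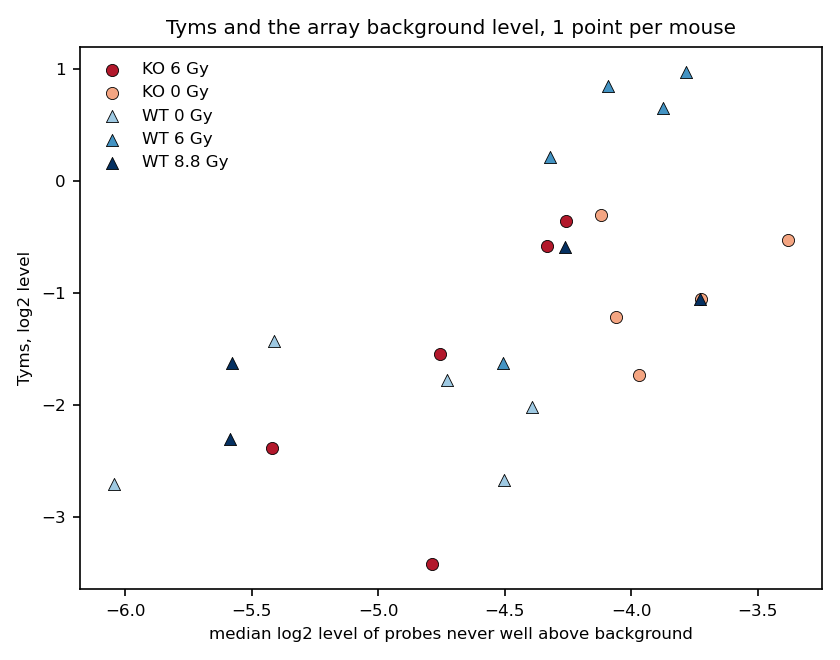
Log2 level of Tyms (y axis) against the median log2 level of the probes that were well above background on no array (x axis), 1 point per mouse. Circles are Parp1-/- mice and triangles wild-type mice. Wild-type sham mice lie at the lower left, with Tyms between -2.70 and -1.43, and 4 of 5 wild-type 6 Gy mice at the upper right, with Tyms between 0.21 and 0.97. Parp1-/- 0 Gy mice lie at -4.12 to -3.38 on the x axis, with Tyms between -1.73 and -0.30. Parp1-/- 6 Gy mice lie at -5.42 to -4.26 (Tyms -3.42 to -0.36) and wild-type 8.8 Gy mice at -5.59 to -3.73 (Tyms -2.30 to -0.59).

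Tk1 varied widely between mice of a group. Its log2 levels were -0.47, -2.45, -0.18, -0.49 and -3.16 in Parp1-/- 6 Gy mice, against 0.74, -2.84, -0.56, -1.33 and -1.13 in Parp1-/- 0 Gy mice. In wild-type mice they were 1.45, -1.82, -0.40, -1.69 and 0.09 at 0 Gy, -2.45, -1.75, -2.59, -2.30 and 0.34 at 6 Gy, and -1.93, -0.50, 0.25 and 0.21 at 8.8 Gy. Hepatocyte markers moved with Tk1 on single arrays. Their mean log2 level was 5.98, -0.99, 6.89, 6.03 and -0.02 in Parp1-/- 6 Gy mice, where replicates 2 and 5 were also the lowest for Tk1, and 7.11 in wild-type 6 Gy replicate 5, against 3.16 or lower in the other 4 mice of that group. Wild-type 0 Gy replicate 1, the mouse with the most Tk1, had 7.88. The part of these markers in the spread of Tk1 was not tested. For Tk1 all groups overlapped, the SD within a group was 1.02 to 1.36, and Tk1 passed in no comparison (lowest limma adjusted p = 0.205, at 6 Gy in wild-type mice). It was well above background on 16 of 24 arrays, and its other 2 probes on 4 and on 0.

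The loss of Parp1 by itself shifted none of the 10 genes past the threshold in sham mice, where limma called 0.681% of all genes tested. The log2 differences, Parp1-/- 0 Gy minus wild-type 0 Gy, ran from -0.55 for Tk1 to 1.15 for Tyms, and Tyms was the 1 gene at an unadjusted limma p under 0.05 (adjusted p = 0.227). Of 13070 genes tested 2693 had an unadjusted p under 0.05 there. For Mcm5 the difference was -0.36 (95% interval -0.94 to 0.22). Among mice given 6 Gy, again 0 of 10 genes were called, where 0.849% of all genes were. At an unadjusted limma p under 0.05 there was 1 of 10, Tyms, where 3050 of 13070 genes tested were counted. Tyms averaged -1.66 ± 1.27 in Parp1-/- 6 Gy mice, against 0.21 ± 1.07 in wild-type 6 Gy mice (SD, n = 5 each; limma difference -1.86, adjusted p = 0.0684). It passed without Parp1-/- 6 Gy replicate 1 (-2.13) and without wild-type 6 Gy replicate 5 (-2.32), with limma adjusted p between 0.0362 and 0.142 over the fits that left out 1 of these 10 arrays.

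At doses of matched lethality, Parp1-/- 6 Gy and wild-type 8.8 Gy mice did not differ in any of the 10 genes by the test. Limma called 0 of 10 genes and 0% of all genes tested. At an unadjusted p under 0.05 there were 0 of 10, where 268 of 13070 genes tested were counted. The log2 differences ran from -0.86 for Tk1 to 0.43 for Mcm6, and that of Mcm5 was 0.05 (95% interval -0.56 to 0.66). The dose step from 6 to 8.8 Gy in wild-type mice likewise gave 0 of 10 calls and 0% of all genes. At an unadjusted limma p under 0.05 there was 1 of 10, Tyms, where 2362 of 13070 genes tested were counted. Mcm5 differed by -0.20 between 8.8 and 6 Gy (95% interval -0.81 to 0.41) and Tyms by -1.60 (95% interval -2.78 to -0.43, limma adjusted p = 0.165). These intervals leave room for changes of about the size seen after exposure for some genes, so equal levels were not shown. The 2 nearly equal arrays lay 1 in each of the matched-dose groups, and fits without 1 or the other still called 0% of all genes there. After normexp background correction limma called 44.3% of all genes tested between the matched doses and 16.6% between 8.8 and 6 Gy. Some of the 10 genes were among them in each comparison.

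Slide and scan day moved with the groups. The sham wild-type mice shared 1 scan day with a single Parp1-/- 6 Gy mouse, and the irradiated wild-type mice were scanned together on another day, so that within wild-type mice scan day and exposure cannot be told apart. When the fit held a fixed term for slide, or for scan day, limma called 0 of the 10 genes in Parp1-/- mice and at either dose in wild-type mice, and at most 0.428% of all genes tested. Under the scan-day block the changes of Mcm5 were -0.86 in Parp1-/- mice and -1.50 at 6 Gy and -1.69 at 8.8 Gy in wild-type mice, and that of Tyms at 6 Gy was 1.80. Mcm3 turned to 0.21 at 6 Gy and 0.02 at 8.8 Gy. Within the 1 day that held both Parp1-/- groups, the single 6 Gy mouse lay below both sham mice for Mcm2, Mcm3, Mcm5, Rrm1 and Tk1 and above both for Rrm2, with differences from the sham mean of -1.03 for Mcm2, -0.86 for Mcm5, -0.98 for Rrm1 and 1.56 for Rrm2. On the day that held the wild-type 0 Gy mice, the single Parp1-/- 6 Gy mouse lay below all 5 of them for Mcm2, Mcm4, Mcm5, Mcm6, Mcm7 and Rrm1 and above all 5 for Rrm2.

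Without both nearly equal arrays, the changes in Parp1-/- mice that stayed past the threshold were those of Mcm2 (-1.41), Mcm5 (-1.19) and Rrm2 (0.98), and Rrm1 changed by -0.70 without passing. At 8.8 Gy in wild-type mice Mcm5 passed (-1.54), while Mcm3 (-1.09), Mcm4 (-1.19) and Rrm1 (-0.82) did not, with 3 mice left in that group. Without the array labelled wild-type 8.8 Gy replicate 4, the Mcm3 and Mcm4 calls were lost too. Of the 16 calls made for the 10 genes over all comparisons, 7 held in every fit that left out 1 array. They were Mcm2, Mcm5 and Rrm2 in Parp1-/- mice, Mcm4, Mcm5 and Tyms at 6 Gy in wild-type mice, and Mcm5 at 8.8 Gy.

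Other genes of DNA replication fell more often than they rose. Of 110 further genes of licensing, helicase activation, the fork, nucleotide supply and S-phase control, 87 were tested. Of these 16 fell and 3 rose in Parp1-/- mice, 19 fell and 2 rose at 6 Gy, and 21 fell and 2 rose at 8.8 Gy in wild-type mice. The shares called in either direction were 21.8%, 24.1% and 26.4%, close to the 22.8% and 26.4% of all genes in the first 2 comparisons and above the 16.1% at 8.8 Gy. Cdkn1a, the p53-induced inhibitor of cyclin-dependent kinases, marked the exposure. It was 18.0-fold higher in irradiated than in sham Parp1-/- mice (limma adjusted p = 1.93e-08), and 17.9-fold higher at 6 Gy and 14.8-fold higher at 8.8 Gy in wild-type mice (limma adjusted p = 1.97e-08 and 6.36e-08). All 6 p53 reference genes rose in each irradiated group, where 12.3%, 15.6% and 7.02% of all genes tested rose.

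Among 6 tested origin licensing genes, Cdt1, which loads the MCM ring onto origins, fell in all 3 irradiated groups and was the 1 that fell. Its log2 changes were -1.23 ± 0.28 in Parp1-/- mice, and -1.44 ± 0.28 at 6 Gy and -1.85 ± 0.30 at 8.8 Gy in wild-type mice (SE, limma adjusted p = 0.00331, 0.00162 and 0.000401). Orc5, a subunit of the origin recognition complex, was at least 1.96-fold higher in irradiated than in sham Parp1-/- mice (limma adjusted p = 0.00159). Of 9 tested helicase activation genes 2 fell in Parp1-/- mice, 1 fell and 1 rose at 6 Gy, and 2 fell and 1 rose at 8.8 Gy. The shares of all genes tested that fell were 10.5%, 10.9% and 9.03%, and those that rose 12.3%, 15.6% and 7.02%. Timeless, which protects the fork, fell in each (log2 changes -1.53, -1.11 and -1.63), and Gins3, a subunit of the GINS complex that activates the helicase, fell by 0.84 in Parp1-/- mice and by 0.77 at 8.8 Gy. Cdc45, the other activating partner of the ring, rose by 1.49 at 8.8 Gy (limma adjusted p = 0.0278).

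Gins2 and E2f7, like Tyms, were called in the test of the difference between the genotypes. They were the 2 called of the 87 further genes tested, or 2.3%. Of all genes tested 6.13% were called, 5.2% with a negative difference. Gins2, of the same GINS complex, rose by 1.48 at 6 Gy in wild-type mice (limma adjusted p = 0.0332), and its response in Parp1-/- minus wild-type mice differed by -2.44 (limma adjusted p = 0.0453). E2f7, a repressor of E2F targets, rose by 1.22 at 6 Gy in wild-type mice and fell by 0.85 in Parp1-/- mice (limma adjusted p = 0.00418 and 0.0295), and these responses differed by -2.08 (limma adjusted p = 0.0208). These differences between the genotypes did not pass after normexp background correction or with slide as a fixed term, where limma called 0 of 13070 genes (3768 and 552 at an unadjusted p under 0.05). E2f7 was also higher in Parp1-/- than in wild-type sham mice, by 1.19 (limma adjusted p = 0.0479). That call ended after normexp, with slide as a fixed or random term, and without Parp1-/- 0 Gy replicate 3, where limma called 0 genes (2678, 299, 1662 and 1369 at an unadjusted p under 0.05). E2f2, which activates S-phase genes, fell by 2.21 in Parp1-/- mice and by 2.18 at 6 Gy in wild-type mice, and Ccna2, the S-phase cyclin A2, fell by 1.97 and 1.89. None of the 18 tested E2F and S-phase control genes was called at 8.8 Gy by limma, where 16.1% of all genes tested were. Mki67, a marker of dividing cells, did not pass after exposure (limma adjusted p = 0.731 in Parp1-/- mice, and 0.109 at 6 Gy and 0.513 at 8.8 Gy in wild-type mice).

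At the replication fork 5 of 23 tested genes fell in Parp1-/- mice, and 7 at 6 Gy and 10 at 8.8 Gy in wild-type mice, with none rising. The shares of all genes tested that fell were 10.5%, 10.9% and 9.03%, and those that rose were 12.3%, 15.6% and 7.02%. Pold1, the catalytic subunit of DNA polymerase delta, changed by -1.13 in Parp1-/- mice, and by -1.02 at 6 Gy and -1.47 at 8.8 Gy in wild-type mice, and all 3 changes passed. Pcna, the sliding clamp, fell by 0.90 at 6 Gy and by 1.02 at 8.8 Gy in wild-type mice (limma adjusted p = 0.0305 and 0.0313), and its change of -0.55 in Parp1-/- mice did not pass (limma adjusted p = 0.192). Fen1, the flap endonuclease, fell in all 3 irradiated groups (log2 changes -0.78, -0.88 and -1.29), as did Rpa1, a subunit of the single-strand binding protein (-0.94, -0.83 and -0.97). In wild-type 6 Gy mice Pold2 was at least 1.17-fold lower and Pola1 at least 1.10-fold lower than in sham mice.

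Of 16 further tested pyrimidine and dNTP genes, 1 fell and 1 rose in Parp1-/- mice, 3 fell and 0 rose at 6 Gy, and 4 fell and 1 rose at 8.8 Gy in wild-type mice. Of all genes tested, 10.5% fell and 12.3% rose in Parp1-/- mice, 10.9% and 15.6% at 6 Gy, and 9.03% and 7.02% at 8.8 Gy. Dut, the enzyme that clears dUTP and supplies dUMP to Tyms, fell by 0.89 in Parp1-/- mice, and by 1.73 at 6 Gy and 1.62 at 8.8 Gy in wild-type mice (limma adjusted p = 0.043, 0.000779 and 0.00267). Ctps, CTP synthase, fell by 1.60 at 6 Gy and 1.68 at 8.8 Gy in wild-type mice, and Umps, which makes UMP, fell by 1.08 at 6 Gy. Tk2, the mitochondrial thymidine kinase, rose by 0.74 in Parp1-/- mice, and Dck, the deoxycytidine salvage kinase, rose by 1.06 at 8.8 Gy. Of 15 purine genes 3 fell in Parp1-/- mice, 3 at 6 Gy and 4 at 8.8 Gy, with none rising. Atic, which completes purine ring synthesis, changed by -0.83, -1.67 and -1.07, and Prps1, which makes the sugar donor PRPP, fell by 0.94 in Parp1-/- mice and by 1.02 at 6 Gy.

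**Figure D4:**
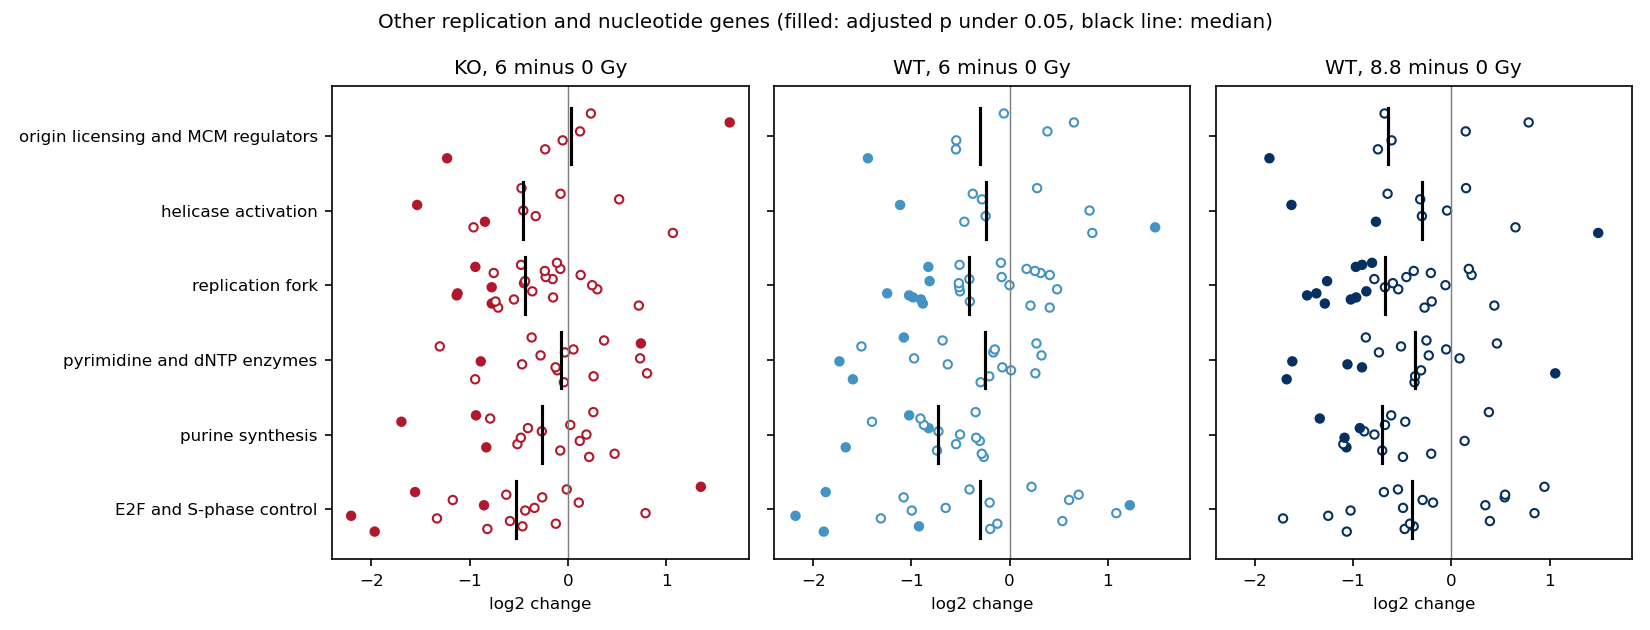
Log2 change (x axis) of each other replication or nucleotide gene tested, by list (y axis), for Parp1-/- mice at 6 Gy and wild-type mice at 6 and 8.8 Gy, each against its sham mice. Filled circles passed limma's test at an adjusted p under 0.05 and black lines are list medians. The medians lie left of 0 in all panels except origin licensing in Parp1-/- mice, at 0.03, and most filled circles lie left of 0.

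Markers of T cells, B cells and red cells fell in the same mice. Of all genes tested, 10.5% fell and 12.3% rose in irradiated Parp1-/- mice. In wild-type mice 10.9% fell and 15.6% rose at 6 Gy, and 9.03% fell and 7.02% rose at 8.8 Gy. Of 10 T cell markers 9 fell in irradiated Parp1-/- mice, and 7 at 6 Gy and 8 at 8.8 Gy in wild-type mice, with none rising. The mean log2 level of the 10 markers was 1.14 to 2.10 in Parp1-/- 6 Gy mice, against 2.85 to 4.04 in Parp1-/- 0 Gy mice, and 3.27 to 4.07 at 0 Gy, 1.83 to 2.76 at 6 Gy and 1.05 to 2.20 at 8.8 Gy in wild-type mice. At least 9 of the 10 T cell markers were well above background on every array of each group. Of 9 tested B cell markers 7 fell in each of the 3 comparisons, and of 14 tested erythroid markers 8 fell in Parp1-/- mice, 8 at 6 Gy and 5 at 8.8 Gy, each time with 1 rising. Of 5 tested NK cell markers 2 fell in Parp1-/- mice, 0 at 6 Gy and 1 at 8.8 Gy in wild-type mice. Of 8 neutrophil markers 2 rose in Parp1-/- mice and 4 at each dose in wild-type mice, and none fell. Of 4 tested progenitor markers 3 rose in Parp1-/- mice, 0 at 6 Gy and 2 at 8.8 Gy in wild-type mice. Of 6 tested monocyte markers 2 fell and 1 rose in Parp1-/- mice, 1 fell at 6 Gy, and 2 fell and 1 rose at 8.8 Gy. Of 6 tested immature neutrophil markers 2 fell in Parp1-/- mice and 1 rose at 6 Gy. Of 7 platelet markers 1 rose in Parp1-/- mice, 0 at 6 Gy and 2 at 8.8 Gy. None of 8 tested hepatocyte and 3 tested heart muscle markers was called in these comparisons. The part of these markers in the MCM result was not tested.

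**Figure D5:**
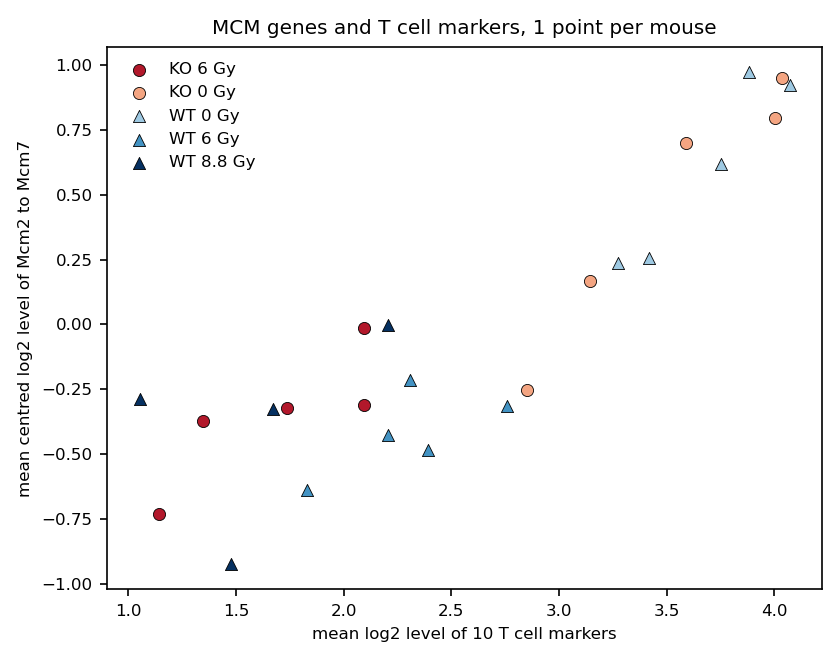
Mean of Mcm2 to Mcm7 (y axis, log2 levels centred per gene over 24 arrays) against the mean log2 level of 10 T cell markers (x axis), 1 point per mouse. Circles are Parp1-/- mice and triangles wild-type mice. All irradiated mice lie at 2.76 or lower on the T cell axis and all sham mice at 2.85 or higher. The MCM mean of the irradiated mice stays below 0, at up to -0.003, and that of the sham mouse Parp1-/- 0 Gy replicate 1 is -0.25, among them.

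Over the 24 arrays Mcm5 and Mcm7 followed the mean of the other 9 genes most closely (Pearson's r = 0.833 for each), and Rrm2 (-0.494), Tk1 (-0.437) and Tyms (-0.367) ran against it. With group means removed, r was 0.733 for Mcm7, 0.546 for Mcm5, 0.389 for Rrm2, -0.806 for Tk1 and -0.0497 for Tyms, and between 0.131 (Mcm3) and 0.499 (Mcm4) for the other 5 genes. Other genes most like the mean of the 10 were 6330509M05Rik (r = 0.924), Jakmip1 (0.923), Padi2 (0.923), which converts arginine to citrulline in proteins, and Nup210 (0.918), of the nuclear pore. These correlations describe arrays that share the group differences, scaling and slides.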

How the data were processed

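RNA of whole blood was hybridised to 24 arrays, 1 mouse each. Per the labels' protocols, RNA was stabilised in PAXgene tubes, globin transcripts were removed and the RNA was labelled with Cy3. Spot intensities were deposited as processed signals of Agilent Feature Extraction 11.5.1, background-subtracted and detrended within each array, per the file headers, which give mm9 as the design build. The authors' deposited series table holds log2 values that equal the log2 processed signal plus a constant per array within 0.01 for at least 98.9% of the probes compared on each array. Its scale is therefore log2 and its direction that of the signal, and the sources used here do not say how its constants, probes and empty cells came about. Its column medians were 7.82, 7.70, 8.06, 7.88 and 7.85 in Parp1-/- 6 Gy mice, 8.09, 7.65, 8.00, 7.68 and 7.62 in Parp1-/- 0 Gy mice, 7.94, 7.67, 7.73, 7.66 and 7.79 in wild-type mice at 0 Gy, 7.74, 7.86, 7.76, 7.65 and 7.69 at 6 Gy, and 7.71, 7.84, 8.04 and 7.97 at 8.8 Gy. It was used as an alternative and held 7 of the 10 genes.

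From the processed signals, log2 values minus each array's 75th percentile were computed, control spots and outlier spots were left out, and spots of a probe were averaged. Of 39429 probes, 27508 were named through RefSeq accessions, 5747 kept the array file's name and 6174 had no symbol. The brightest probe stood for a gene. Genes with a signal well above background in 4 or more mice of some group (13070 of 24325) were fitted over all 5 groups with limma 3.58.1 in R 4.3.3, and p-values of 8 comparisons were adjusted by Benjamini-Hochberg over all genes tested, with calls at an adjusted p under 0.05. These p-values measure the spread between mice of a group. Where a group held no array with the gene above background, the fold is a bound against the lowest signal well above background. The fit was tested on simulated data.

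The 10 genes, the gene lists and the markers were chosen with earlier results of these data known. Named genes were the 10, up to 3 called genes with the largest change per list and comparison, Parp1, Rrm2b, Pcna, Cdkn1a and Mki67, and the 5 genes whose pattern was most like the mean of the 10. One result under this rule is not reported here. Alternatives were other scalings and normalizations, normexp with an offset of 50, other filters and probe rules, the authors' table, slide, scan day or replicate number as a block, leaving out single arrays, and leaving out both nearly equal arrays.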

Additional observations from a re-analysis of the deposited data

Results flagged for a closer look

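The response of Tyms to 6 Gy differed between the genotypes by the test of the difference itself, at -3.02 on the log2 scale for Parp1-/- minus wild-type mice. In 4 of the 50 gene and group combinations checked, 1 mouse lay far from the others of its group, where chance gives about 1 in 20. Mcm6 in Parp1-/- 0 Gy replicate 1 was the lowest of its group at 0.603, and the next mouse was at 1.85. Rrm2 in the same mouse was the lowest at -1.0, and the next was at -0.41. The mean level of hepatocyte markers in that mouse was 7.31, against 2.47 or lower in the other 4 of its group. Rrm1 in Parp1-/- 6 Gy replicate 5 was at -2.24, not well above background, and the next mouse was at -1.44. Tk1 in wild-type 6 Gy replicate 5 was the highest at 0.34, and the next mouse was at -1.75, not well above background. Hepatocyte markers averaged 7.11 in that mouse, against 3.16 or lower in the other 4, and their part in these values was not tested.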

How the results depend on the processing

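Of the alternative values for the 10 genes, 2657 kept a call in the same direction or were called in neither fit, whatever their sign. A further 129 lost the call and 32 gained one. Another 6 changed sign with a call in the main or the alternative fit. These 6 included Mcm3 at 6 Gy against 0 Gy in wild-type mice (0.57 with a fixed slide term and 0.21 with a fixed scan-day term). The others were Mcm3 at 8.8 Gy against 0 Gy (0.50 and 0.019 with the same terms), and Rrm1 after normexp at 8.8 Gy against 0 Gy (0.21) and against 6 Gy (0.38). With either of these blocks, 0 of the 10 genes were called in Parp1-/- mice, at either dose in wild-type mice and in the test of the genotype difference, with single Parp1-/- 6 Gy arrays linking the groups. At 6 Gy against 0 Gy in wild-type mice 7 genes were called, 4 after normexp, 4 of the 6 genes well above background on all arrays, and 3 to 7 with 1 array left out. At 8.8 Gy against 0 Gy 4 were called, 1 without a filter on dim probes, 2 with slide as a random block, 1 without both nearly equal arrays, and 1 to 5 with 1 array left out. Normexp called 2 genes between 8.8 and 6 Gy and 2 between Parp1-/- 6 Gy and wild-type 8.8 Gy mice, against 0. Between Parp1-/- and wild-type 6 Gy mice, median centring called 3, slide as a random block 1, the fit without both nearly equal arrays 1, and fits with 1 array left out 0 to 1. For the genotype difference, median centring called 4 and the authors' table, normexp, the all-arrays filter, slide as a random block and the replicate block called 0, with 0 to 1 when 1 array was left out. The cause was not tested. Same-numbered arrays of different groups had a median r of -0.0443 over 46 pairs (-0.77 to 0.749), against -0.00102 over 184 pairs with other numbers. A pairing by number was thus not shown, and what the numbers stand for was not settled. Under the replicate block 3 genes were called in Parp1-/- mice, 5 at 6 Gy and 4 at 8.8 Gy in wild-type mice. The Tyms difference of -3.02 had a limma adjusted p of 0.0535 under that block. Over all genes, 2035 rose and 1420 fell at 6 Gy in wild-type mice, 538 and 5572 with median centring, 634 and 820 after normexp, and 5654 and 1404 without a filter. At 8.8 Gy 918 rose and 1180 fell, 500 and 2000 with median centring, and 2477 and 2434 after normexp. The genotype difference was positive for 121 and negative for 680 called genes, 3513 and 437 with median centring, 312 and 7193 without a filter, and 0 after normexp. Called genes numbered 1729 at 6 Gy under the all-arrays filter and 1155 at 8.8 Gy without both nearly equal arrays. Fixed slide and scan-day terms called 53 and 56 genes in Parp1-/- mice, against 2980 without them, 0 and 15 at 6 Gy and 0 and 23 at 8.8 Gy. Over the alternatives, excluding single left-out arrays, 0 to 7505 genes were called for the genotype difference, 1 to 3814 between Parp1-/- and wild-type 6 Gy mice (111 as reported), 0 to 2170 between 8.8 and 6 Gy (0), 0 to 5785 between Parp1-/- 6 Gy and wild-type 8.8 Gy mice (0), and as few as 0 between sham genotypes (89). Signal over background limits Tk1, Rrm1 and Tyms, which were well above background on 16, 20 and 22 of 24 arrays.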
